A study of Mus musculus with 2 samples.

Results

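The genes described here are the partners of the B cell antigen receptor and a set of genes that mark B cell identity. They are 9 of the 31053 genes in the deposited matrix: Cd79a, Cd79b, Ms4a1, Cr2, Fcer2a, Fcmr, Tnfrsf13c, Vpreb3 and Spib. They were chosen by symbol, and each symbol matched 1 row. The study isolated immune cells from mouse liver by collagenase IV digestion and sorting, and profiled them with droplet-based single-cell RNA sequencing. The labels name 2 samples, both of strain RedMUC298trTg and 8 weeks old: a WT sample, which the series title describes as Rcrin flox, and an Rcrin KO sample, from the liver conditional knockout. The deleting driver, the sort gate and the number of animals are not given in the sources used here. The matrix, gene and barcode files of the 2 samples were identical byte for byte, so all 11192 barcodes were shared and the data were analysed as 1 sample. Whether the cells described here came from the WT or the Rcrin KO liver is therefore not known. No comparison of genotypes could be made, no gene of the matrix carries the symbol Rcrin, and no p-value is given. Each interval is a 95% exact interval and covers counting error only, with each UMI taken as an independent count.

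The B cell receptor consists of a membrane immunoglobulin and a heterodimer of CD79A and CD79B, whose cytoplasmic tails carry the tyrosine motifs that start signalling. Complement receptor CR2 (CD21) acts as a co-receptor, and MS4A1 (CD20) is a membrane protein that modulates calcium entry. FCER2A (CD23) is the low-affinity receptor for IgE, FCMR is the receptor for IgM, and TNFRSF13C is the receptor through which the survival factor BAFF keeps maturing B cells alive. VPREB3 is an immunoglobulin-like protein of the endoplasmic reticulum in developing B cells, and SPIB is an ETS-family transcription factor of B cells and plasmacytoid dendritic cells. B cells leave the bone marrow as transitional cells and mature in the periphery, and plasma cells, their secreting descendants, shut down much of the B cell programme.

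The promoters of 3 of these genes are shown because their genes were distributed differently over the cells described below: Cd79a across all B-like cells, Vpreb3 mainly in the transitional-like cells, and Spib in B-like and plasmacytoid dendritic-like cells. Each run holds the 250 bases before the RefSeq start (GRCm38.p6), and capitals mark a match to a searched motif.
Cd79a (chr7:24897247-24897496, plus strand): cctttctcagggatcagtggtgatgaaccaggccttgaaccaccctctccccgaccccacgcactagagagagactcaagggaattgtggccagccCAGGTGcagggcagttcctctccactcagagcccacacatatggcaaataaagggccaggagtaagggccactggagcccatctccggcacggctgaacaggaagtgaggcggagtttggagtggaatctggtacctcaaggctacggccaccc
Vpreb3 (chr10:75948050-75948299, plus strand): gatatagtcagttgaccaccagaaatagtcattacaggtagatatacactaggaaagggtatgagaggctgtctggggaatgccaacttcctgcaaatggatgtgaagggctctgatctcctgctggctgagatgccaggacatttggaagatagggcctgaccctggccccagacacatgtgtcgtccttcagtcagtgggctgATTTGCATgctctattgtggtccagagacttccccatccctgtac
Spib (chr7:44532072-44532321, minus strand): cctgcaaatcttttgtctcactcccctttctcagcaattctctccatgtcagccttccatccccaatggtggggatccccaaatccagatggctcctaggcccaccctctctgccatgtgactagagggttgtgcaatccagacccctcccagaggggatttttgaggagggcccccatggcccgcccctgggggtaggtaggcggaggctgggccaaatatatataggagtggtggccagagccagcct
RefSeq entries matched 7 of the 9 genes, and Cd79b and Ms4a1 had none in the table. Both strands were searched for the octamer ATGCAAAT, bound by POU-domain factors, for the E-box CAGGTG of the E2A type and for the ETS motif GAGGAAGT. None of the matches found overlaps another. The octamer was found in the Vpreb3 promoter, starting 45 bases before the RefSeq start used here, which lies inside the span that GENCODE gives the gene, and in none of the other 6 matched genes. It occurred in 1.60% of the 32851 RefSeq promoters of that length. The E-box was found in 4 of the 7 genes (Cd79a, Cr2, Tnfrsf13c and 1 of the 3 promoters of Fcer2a), against 17.2% of all promoters. No match was found for the ETS motif, present in 2.44% of all promoters. These matches describe letters in a window and are not evidence of binding.

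The matrix held 67037274 UMI (unique molecular identifiers, counts of captured RNA molecules). Of its barcodes, 10366 passed filters on depth (500 UMI and 200 genes or more) and on mitochondrial UMI (no more than 10%), and 351 of them were called doublets and removed, which left 10015 cells with a median of 4250 UMI. Cells were clustered with the 9 genes left out, and clusters were named from marker genes that included none of them, so that the levels below did not define the classes. B-like cells numbered 2907 (29.0% of kept cells). They fell into 2250 mature B-like cells and 657 transitional-like cells, which made up 22.6% of the B-like cells (21.1 to 24.2%). Median depth (3146 UMI in transitional-like and 3266 UMI in mature cells) and median mitochondrial share (6.41% and 6.22%) were close in both. Ribosomal protein genes took 18.7% of transitional-like UMI and 23.6% of mature UMI, and a total without them is among the alternatives below. Of 14 transitional marker genes 9 were at least 2-fold higher in the transitional-like cells and 1 was lower. Of 14 mature follicular markers none was higher and 4 were lower. These 2 lists were used to split the B-like cells, so their counts are descriptions. Of 13 marginal zone or B1 markers, 5 were higher and 2 lower there. The shares among 11142 genes with at least 10 UMI were 4.05% higher and 2.87% lower. Levels are UMI summed over the cells of a class, per 1000000 UMI of that class (CPM). The plasma cell marker list summed to 474 CPM in transitional-like and 576 CPM in mature cells, and the T cell list to 52.5 and 52.2 CPM. One cluster of 76 cells carried B cell genes together with hepatocyte genes and was left unnamed, and it counted among the cells that are not B-like. In those 76 cells Cd79a stood at 2350 CPM and Fcmr at 521 CPM, beside 2422 and 538 CPM in mature B-like cells.

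All 9 genes were at least 2-fold higher in B-like cells than in the other kept cells. They were chosen as B cell genes, so this count is a description. Of 15644 genes with at least 10 UMI, 5.74% were at least 2-fold higher (9.95% of those that also reached 50 CPM in either group). The ratio was 82.0-fold (73.3 to 92.0) for Fcmr, at 529 CPM in B-like cells and 6.45 CPM elsewhere, and 79.4-fold (73.3 to 86.0) for Ms4a1, at 1039 and 13.1 CPM, so the order of these highest ratios is not resolved. It was smallest for Spib, at 136 and 16.8 CPM (8.09-fold, 7.43 to 8.82). Without the cluster of B and hepatocyte genes the difference went from 5.88 to 6.31 on the log2 scale for Cd79a, from 6.15 to 6.75 for Fcmr and from 6.21 to 6.55 for Ms4a1, and all 9 genes stayed past 2-fold.

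**Figure D1:**
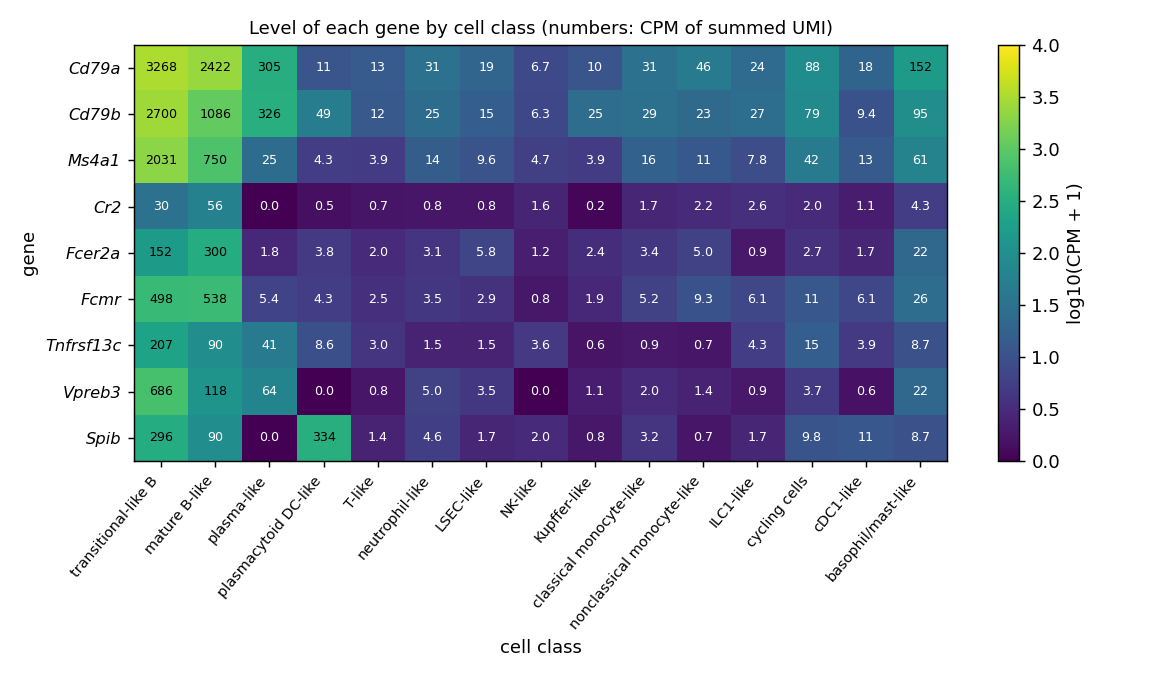
Summed UMI per 1000000 (CPM, printed in each cell) of the 9 genes (rows), to be read along a row. Columns are the 15 named cell classes with at least 30 cells, and colour is log10 of CPM + 1. Spib peaks at 334 CPM in the plasmacytoid dendritic-like class, and the other 8 rows peak in 1 of the 2 B-like classes at the left.

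Most B-like cells had UMI of several of the genes, while single genes ranged from rarely to almost always read. Cd79a had a UMI in 99.5% of B-like cells, Cd79b in 94.3%, Ms4a1 in 86.8%, Fcmr in 72.7% and Fcer2a in 49.2%. Vpreb3 was read in 38.1%, Spib in 32.0%, Tnfrsf13c in 28.7% and Cr2 in 14.3%. In the other kept cells these shares ran from 0.732% for Cr2 to 10.2% for Cd79b. At least 3 of the 9 genes had a UMI in 99.7% of transitional-like and 98.2% of mature B-like cells. The share was 96.1% in the cluster of B and hepatocyte genes, 72% of plasma-like cells, 4.96% of plasmacytoid dendritic-like cells and 0.441% of T-like cells, the last 3 at median depths of 20875, 7983 and 4843 UMI. No transitional-like cell and 5 of 2250 mature cells lacked a UMI of all 9.

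The signalling chains differed in how far their levels lay apart between the 2 B-like classes. Cd79a (chr7:24897381-24902197, plus strand, mm10) stood at 3268 CPM (3195 to 3342) in transitional-like cells and 2422 CPM (2388 to 2457) in mature cells, a ratio of 1.35 (1.31 to 1.39). Cd79b (chr11:106311341-106314762, minus strand) stood at 2700 CPM (2633 to 2768) and 1086 CPM (1063 to 1109), a ratio of 2.49 (2.41 to 2.57). The 2 intervals do not meet, so the chains of the heterodimer did not differ by the same factor. After every cell was thinned to 1000 UMI, both chains were detected in 83.8% of 656 transitional-like cells and in 54.1% of 2240 mature cells. Cells with a Cd79a UMI but none of Cd79b made up 11.4% and 36.2%, and cells with the reverse pattern 3.96% and 6.52%. These shares depend on the thinned depth: before thinning, Cd79b had a UMI in 98.9% of transitional-like and 93.0% of mature cells.

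Of the co-receptor and membrane genes, Ms4a1 (chr19:11249675-11266241, minus strand) was higher in transitional-like cells and Cr2 (chr1:195136811-195176716, minus strand) was lower. Ms4a1 stood at 2031 CPM (1973 to 2089) against 750 CPM (732 to 770) in mature cells, a ratio of 2.71 (2.60 to 2.81). Its share of cells with a UMI was 94.5% against 84.5%, and 78.4% against 49.6% after thinning. T-like cells, which should lack it, had 1.24% before thinning and 0.178% after. An antisense gene that overlaps Ms4a1, 4930526L06Rik, had 0 UMI in both classes. Cr2 stood at 30.1 CPM (23.5 to 38.1) in transitional-like and 55.6 CPM (50.5 to 61.0) in mature cells, 1.84-fold lower (1.43 to 2.41).

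The receptors for immunoglobulin ranked the cells the other way round. Fcer2a (chr8:3681737-3694175, minus strand) stood at 152 CPM (137 to 169) in transitional-like and 300 CPM (288 to 312) in mature cells, 1.97-fold lower (1.76 to 2.21). It was detected in 28.0% and 55.4% of these cells. Fcmr (chr1:130865669-130880791, plus strand) stood at 498 CPM (470 to 527) and 538 CPM (522 to 554), 1.08-fold lower (1.01 to 1.15). The 2 receptors therefore differed from each other in the size of their difference, with intervals that do not meet.

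Tnfrsf13c, Vpreb3 and Spib were all higher in transitional-like cells. The BAFF receptor gene Tnfrsf13c (chr15:82221743-82224369, minus strand) stood at 207 CPM (189 to 226) against 89.7 CPM (83.3 to 96.6), a ratio of 2.30 (2.05 to 2.59). Vpreb3 (chr10:75943057-75949657, plus strand) stood at 686 CPM (653 to 721) against 118 CPM (111 to 126), a ratio of 5.80 (5.35 to 6.29). High Vpreb3 names this class in the choice of the genes, so its level there is a description, although the cells were split by other genes. It was detected in 72.3% of transitional-like and 28.1% of mature cells, and in 0.265% of T-like cells. Spib (chr7:44525993-44532071, minus strand) stood at 296 CPM (275 to 319) against 89.7 CPM (83.3 to 96.6), a ratio of 3.30 (2.97 to 3.67).

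In this comparison 5 of the 9 genes were at least 2-fold higher in transitional-like cells (Cd79b, Ms4a1, Tnfrsf13c, Vpreb3 and Spib), where 4.05% of 11142 genes with at least 10 UMI were, or 2.88% of those that also reached 50 CPM. Vpreb3 is counted among these 5. Its high level names the class in the choice of the genes, so its call is a description. None of the 9 genes was at least 2-fold lower, against backgrounds of 2.87% and 1.36%. The median log2 fold of all genes tested was 0.08. The lower count depended on settings, since Fcer2a lay close to the line: its log2 fold of -0.97 became -1.06 with immunoglobulin, haemoglobin, mitochondrial and ribosomal protein genes left out of the total. It became -1.75, and that of Cr2 -2.11, when cells were limited to 5% mitochondrial UMI, which left 54 transitional-like cells.

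**Figure D2:**
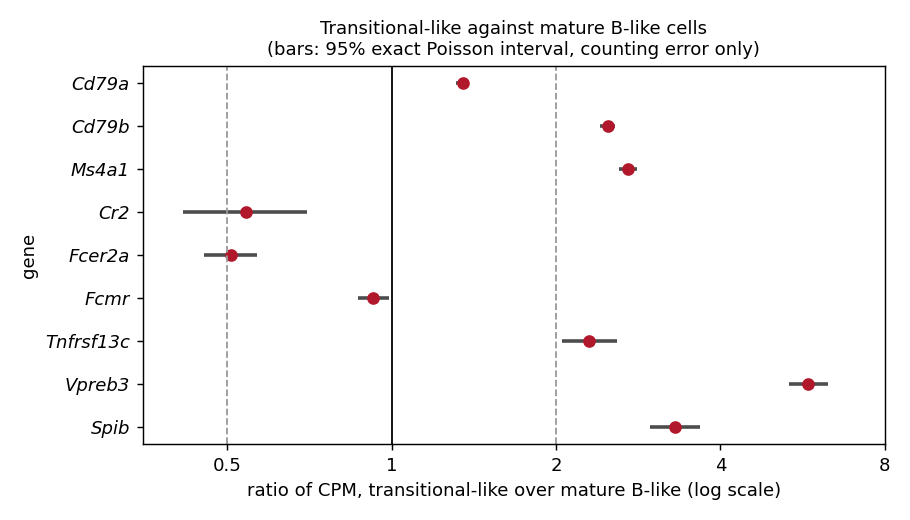
Ratio of CPM in transitional-like over mature B-like cells for each gene (log axis; points are ratios, bars 95% exact Poisson intervals, dashed lines 2-fold in each direction). On the right are 5 genes beyond the 2-fold line, from 2.30 for Tnfrsf13c to 5.80 for Vpreb3, and Fcer2a (0.508) and Cr2 (0.542) lie near the left line.

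Subclusters of the B-like cells, also made without the 9 genes, showed how the levels varied within both classes. A subcluster of 40 cells, 90% of them transitional-like, was led by Rag1, a recombinase gene of developing lymphocytes, at 866 CPM. A second of 597 cells, 87.4% transitional-like, was led by Akap12 and had 9.24 CPM of Rag1. The remaining cells of subclusters with at least 30 cells formed 6 subclusters with 2.14 to 8.07% transitional-like cells, and 1 more subcluster, of 14 cells, is not described.

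Between the 2 transitional-like subclusters, 4 of the 9 genes had a ratio whose interval excluded 1. Vpreb3 was 2.04-fold higher (1.73 to 2.39) in the subcluster led by Rag1, at 1421 CPM against 698 CPM. Fcer2a was 5.34-fold lower there (2.07 to 19.7), at 33.6 CPM against 180 CPM. Fcmr was 2.79-fold lower (1.81 to 4.53), at 177 CPM against 492 CPM. Ms4a1 was 2.18-fold lower (1.82 to 2.64), at 992 CPM against 2165 CPM. Intervals of the ratio included 1 for Cd79a (1.04, 0.936 to 1.14), Cd79b (1.03, 0.917 to 1.14), Tnfrsf13c (0.982, 0.628 to 1.47), Spib (0.890, 0.604 to 1.27) and Cr2 (0.508, 0.0603 to 1.91). For Cr2 the depth leaves a wide range, while for both CD79 chains the upper bound of the ratio was 1.14.

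Across the 6 mature subclusters the genes differed in how far they ranged. Cd79a ran from 2270 to 2626 CPM and Spib from 83.8 to 120 CPM, both below either transitional-like subcluster. Fcmr ran from 447 to 672 CPM, and Vpreb3 from 65.9 to 148 CPM. Fcer2a had the widest relative range, from 122 to 341 CPM. One subcluster of 161 cells stood apart, led by S100a6 and Igha and carrying Cd9 (101 CPM) and Zbtb32 (63.0 CPM), genes of the marginal zone and B1 list. It had the lowest Fcer2a (122 CPM, where the median of the 6 was 306 CPM), the lowest Vpreb3 (65.9 CPM, median 114 CPM) and the lowest Cr2 (39.7 CPM, median 54.3 CPM). It had the highest Ms4a1 (1162 CPM, median 693 CPM) and the highest Cd79b (1368 CPM, median 1095 CPM). Its cells were the deepest of the 6 (median 5461 UMI), and the part of depth in these levels was not tested. A subcluster led by Egr1 and Nr4a1, immediate early genes that follow receptor engagement, had the highest Tnfrsf13c of the 6 (128 CPM, median 91.7 CPM) and the highest Spib (120 CPM, median 91.5 CPM), each with an interval that overlaps that of another mature subcluster.

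**Figure D3:**
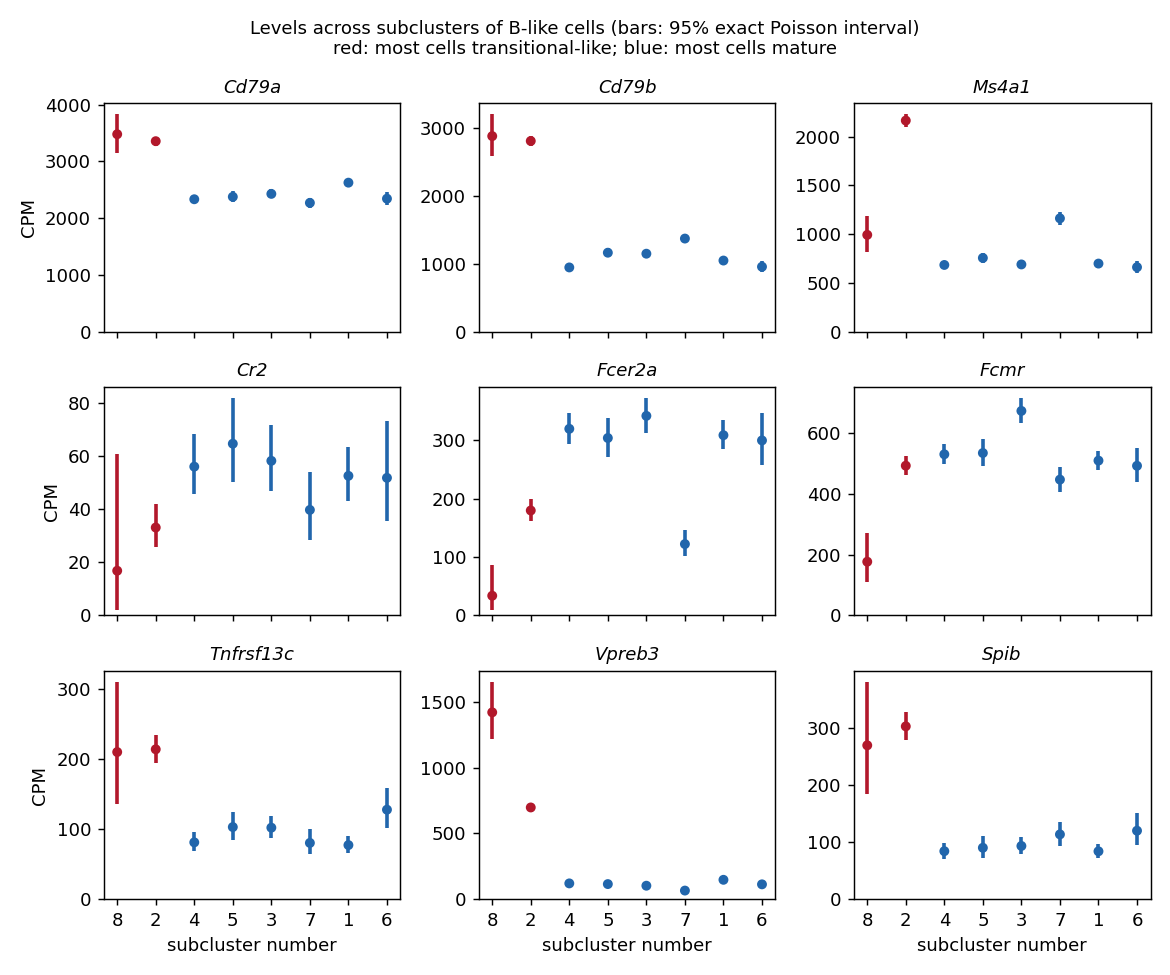
CPM of each gene (1 panel per gene, axes from 0) in the 8 subclusters of B-like cells with at least 30 cells, ordered by their transitional marker score. Bars are 95% exact Poisson intervals, red points mark subclusters of mostly transitional-like cells and blue points mostly mature cells; subcluster 8 has the highest Vpreb3 (1421 CPM) and the lowest Fcer2a (33.6 CPM), and subcluster 7 has low Fcer2a (122 CPM) with high Ms4a1 (1162 CPM).

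Within the transitional-like class the other genes also varied with the number of Vpreb3 UMI in a cell, which was at least 2 in 343 cells, 1 in 132 cells and 0 in 182 cells. Ms4a1 stood at 2437, 1709 and 1510 CPM in these 3 sets of cells. Fcmr ran in the opposite order, at 389, 560 and 655 CPM. Fcer2a was lowest in the cells with 2 or more, at 101 CPM, against 243 and 182 CPM. Cr2 stayed between 28.4 and 30.7 CPM. In mature cells Fcer2a did not show that order: it was 330 CPM with at least 2 Vpreb3 UMI and 290 CPM with none. Fcmr ran there as in transitional-like cells, at 424, 483 and 569 CPM. Ms4a1 was also highest with at least 2, at 890 CPM against 731 and 735 CPM. Cr2 stood at 78.2, 61.6 and 50.6 CPM. A cell with no UMI may still hold the RNA, and the sets are described without a test.

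In plasma-like cells some of the genes were not read and others were. They numbered 75, with a median of 20875 UMI, of which immunoglobulin genes took 29.7%. Cr2 and Spib had 0 UMI among 1668849, which put them at least 30.9-fold and at least 49.9-fold lower than in mature B-like cells, with 3 counts over the class as the floor. By the same floor, 0 of 75 cells allows a share of cells with a UMI of up to 4% (4.80% by the exact interval), which says nothing of cells that hold the RNA unread. Fcer2a had 3 UMI (1.80 CPM), 167-fold lower (56.9 to 809), and Fcmr stood at 5.39 CPM, 99.7-fold lower (52.5 to 218). Ms4a1 stood at 25.2 CPM, 29.8-fold lower (22.0 to 41.4).

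The size of several of these differences depended on which cells the clustering called plasma-like. With at least 1000 UMI and 500 genes per cell the class held 98 cells, and with the 9 genes allowed among the variable genes it held 88. The log2 fold of Spib, -6.50 as reported, became -2.87 and -3.85 under these alternatives, and that of Ms4a1 went from -4.84 to -2.02 and -2.43. For Fcmr it went from -6.40 to -4.31 under the depth alternative only. Those of Cr2 (-5.83 under both) and Fcer2a (-6.62 and -6.85) stayed close to the reported -5.82 and -6.75. Cd79a went from -2.99 to -2.30 and -2.49, and Cd79b from -1.73 to -1.07 and -1.26. All of these remained at least 2-fold lower.

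The signalling chains, Tnfrsf13c and Vpreb3 were closer to the mature level. Cd79a stood at 305 CPM (279 to 333), 7.94-fold lower (7.27 to 8.69), and had a UMI in all 75 cells. Cd79b stood at 326 CPM (299 to 355), 3.33-fold lower (3.05 to 3.64), and had a UMI in 96% of cells. Tnfrsf13c stood at 41.3 CPM (32.2 to 52.3), 2.17-fold lower (1.69 to 2.82), and Vpreb3 at 63.5 CPM (52.0 to 76.8), 1.86-fold lower (1.52 to 2.30). Vpreb3 had a UMI in 48% of plasma-like cells and 5.33% after thinning to 1000 UMI, where mature cells had 10.4% and T-like cells 0.0444%. By count, 8 of the 9 genes were at least 2-fold lower, and Vpreb3 was not; 36.6% of 11136 genes were at least 2-fold lower in this comparison, or 42.5% of those that reached 50 CPM. The log2 median of all genes was -0.63 and became -0.31 with the reduced total. Tnfrsf13c kept its direction but not its call there: its log2 fold of -1.10 became -0.74 with the reduced total and -0.62 without immunoglobulin genes only. Its call was also lost with at least 1000 UMI and 500 genes, with the 9 genes allowed among the variable genes and with a pseudocount of 10 CPM. Vpreb3, at -0.89, passed 2-fold lower with at most 5% mitochondrial UMI and with at least 1000 UMI and 500 genes. It also did so at Leiden resolution 2.0 and with cells thinned to 1000 UMI, and its lowest value was -1.40. The ratio intervals of these 2 genes overlap.

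Plasma-like cells with more and with fewer cell cycle markers were close in Vpreb3. Of the 75, 25 had a UMI of at least 3 cell cycle markers. Vpreb3 stood at 64.3 CPM (46.5 to 86.6) in them and 63.0 CPM (48.4 to 80.6) in the other 50. Ms4a1 stood at 41.9 CPM (27.8 to 60.5) and 14.0 CPM (7.65 to 23.5), but its UMI lay in few cells of either set: 28 UMI in 5 cells (20%) and 14 UMI in 8 cells (16%). The shares of cells were thus close, and the difference in CPM rests on those few cells. Immunoglobulin genes took 16.5% and 38.6% of the UMI of these 2 sets, and the part of that share in the CPM was not tested.

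Plasmacytoid dendritic-like cells carried Spib and little of the other genes. They numbered 262, with a median of 7983 UMI. Spib stood at 334 CPM (310 to 360) in them and at 3.21 CPM in the cells outside the B-like, plasma-like and plasmacytoid dendritic-like classes, a ratio of 104 (87.0 to 125). It exceeded the transitional-like level slightly (1.13-fold, 1.01 to 1.25). It was detected in 82.1% of these cells and in 28.5% after thinning, beside 23.8% of transitional-like, 8.35% of mature and 0.133% of T-like cells. Of the other named classes, conventional dendritic (cDC1-like) cells came next after the B-like classes with 11.0 CPM (6.73 to 17.0). Cycling cells followed at 9.78 CPM, a step within counting error (1.13-fold, 0.604 to 2.06).

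Cd79b, Tnfrsf13c and the others were low in plasmacytoid dendritic-like cells. Cd79b stood at 49.2 CPM (40.2 to 59.7) against 27.2 CPM elsewhere (1.81-fold, 1.47 to 2.22), and Tnfrsf13c at 8.61 CPM against 3.30 CPM (2.61-fold, 1.51 to 4.26). Cd79a stood at 10.5 CPM, 3.36-fold lower (2.21 to 5.38), and Ms4a1 at 4.30 CPM, 3.03-fold lower (1.59 to 6.67). Vpreb3 had 0 UMI, which at the floor of 3 counts is at least 1.75-fold lower than the 2.51 CPM of the other cells. Fcer2a, Fcmr and Cr2 had 8, 9 and 1 UMI, and all 8 of Fcer2a lay in 1 cell. By count 2 of the 9 genes were at least 2-fold higher (Spib and Tnfrsf13c), where 7.83% of 15242 genes were, and 3 were at least 2-fold lower (Cd79a, Ms4a1 and, with the 1 CPM pseudocount, Vpreb3), where 24% were. Without the cluster of B and hepatocyte genes, which was chosen after the data were seen, Cd79b also passed 2-fold, with a log2 fold of 1.12 in place of 0.84. There Cd79a went from -1.66 to -1.06 and Ms4a1 from -1.41 to -1.02, both still past 2-fold. With doublet calls kept, the calls of Cd79a (-0.69), Vpreb3 (-0.98) and Ms4a1 (0.16) were lost. That of Ms4a1 was also lost with at least 1000 UMI and 500 genes (-0.99), with 4000 variable genes (-0.98) and with a pseudocount of 10 CPM (-0.69), and that of Vpreb3 with the last of these (-0.32).

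Low counts in other classes may include free RNA, and its part in them was not tested. Each gene was set beside Cd79a and divided by the same proportion in B-like cells. The interval of this quotient covers the counting error of both genes in both classes. B-like cells are its only reference, although Spib also had 699 UMI in plasmacytoid dendritic-like cells, beside 1405 UMI in B-like cells. In plasmacytoid dendritic-like cells, where Cd79a had 22 UMI in 10 cells, this quotient was 609 (397 to 981) for Spib, 18.4 (9.28 to 36.1) for Tnfrsf13c and 8.44 (5.29 to 14.1) for Cd79b. For Ms4a1 it was 1.03 (0.417 to 2.33), with 9 UMI in 4 cells. In cells like Kupffer cells, the macrophages that line liver sinusoids, Cd79b had 162 UMI where the B-like proportion gives 36.1, a quotient of 4.49 (3.35 to 6.09). The other Kupffer-like quotients had intervals that included 1, apart from Fcer2a at 2.26 (1.20 to 4.02), on 15 UMI in 8 cells. Cd79b was detected in 16.8% of Kupffer-like cells (median 12136 UMI) and 4.90% of T-like cells, and in 2.20% (1.10 to 3.89) and 1.07% (0.684 to 1.58) after thinning, intervals that overlap.

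In T-like cells the quotient was 5.05 (3.38 to 7.36) for Tnfrsf13c, which rests on 35 UMI in 33 of 2266 cells. It was 2.69 (1.13 to 5.47) for Cr2, 2.09 (1.18 to 3.47) for Spib and 1.65 (1.31 to 2.09) for Cd79b, and intervals of the other genes included 1, with Ms4a1 at 0.742 (0.521 to 1.04). In cDC1-like cells it was 11.6 (6.30 to 20.9) for Spib and 4.77 (1.78 to 11.0) for Tnfrsf13c, on 20 and 7 UMI. In nonclassical monocyte-like and basophil or mast cell-like cells every quotient of the 8 genes had an interval that included 1. Plasma-like cells had a Cd79a UMI in all 75 cells (305 CPM), so there Cd79a was not a low count. Their Cd79a was 7.94-fold lower than in mature cells, which raises the quotient of genes that differed less. They had quotients of 3.05 (2.32 to 3.96) for Tnfrsf13c, 2.21 (1.77 to 2.74) for Vpreb3 and 1.93 (1.70 to 2.18) for Cd79b. Their quotients for Ms4a1 (0.208, 0.148 to 0.285), Fcmr (0.0874, 0.0397 to 0.167) and Fcer2a (0.0578, 0.0119 to 0.170) were below 1.

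**Figure D4:**
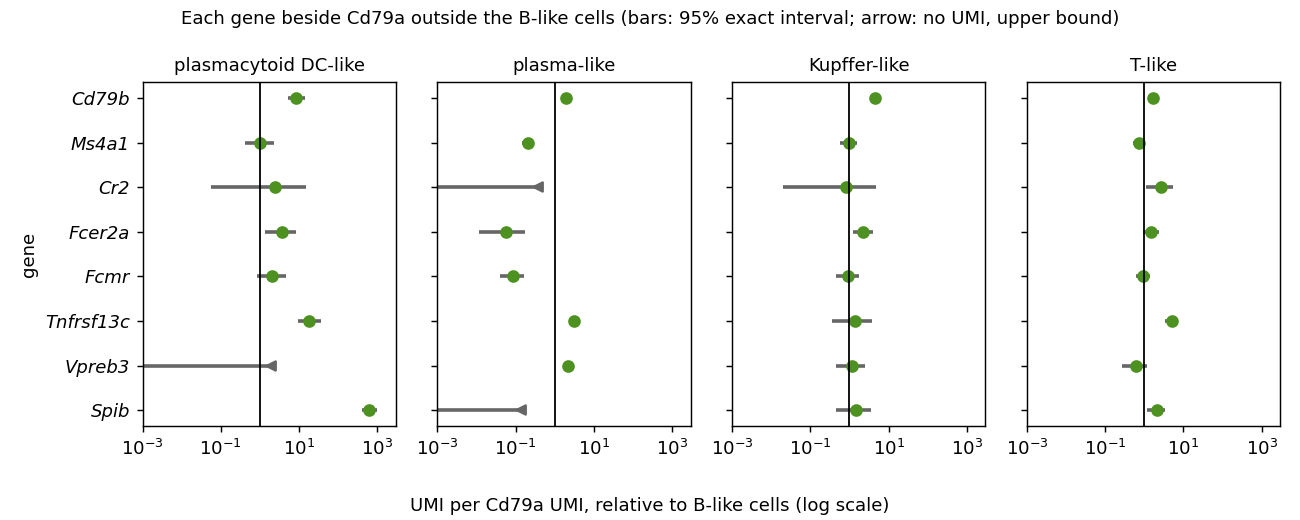
UMI of each gene per Cd79a UMI in 4 classes outside the B-like cells, divided by the same proportion in B-like cells (log axis; vertical line at 1; bars are 95% exact intervals over the counts of both genes; an arrow marks a gene with no UMI at its upper bound). Spib reaches 609 in plasmacytoid dendritic-like cells, Cd79b 4.49 in Kupffer-like cells and Tnfrsf13c 5.05 in T-like cells. Ms4a1 lies near 1 in plasmacytoid dendritic-like and Kupffer-like cells. It lies at 0.208 in plasma-like cells, where every cell had a Cd79a UMI. The values describe proportions, and the part of free RNA in them was not tested.

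The genes were ranked over the 15 named classes with at least 30 cells. Unnamed cells were left out, among them the cluster of B and hepatocyte genes. That cluster had 2350 CPM of Cd79a, 626 CPM of Ms4a1 and 117 CPM of Spib. Of the ranked classes, transitional-like cells came first for Cd79a, Cd79b, Ms4a1, Tnfrsf13c and Vpreb3. Mature cells came first for Cr2, Fcer2a and Fcmr, and plasmacytoid dendritic-like cells for Spib. Plasma-like cells were next after both B-like classes for Cd79a, Cd79b, Tnfrsf13c and Vpreb3. The steps from first to second and from there to the next class had an interval above 1 for all 9 genes. Basophil or mast cell-like cells, which numbered 44, followed the B-like classes for Cr2 (4.34 CPM), Fcer2a (21.7 CPM), Fcmr (26.0 CPM) and Ms4a1 (60.7 CPM), on 1, 5, 6 and 14 UMI in 1 to 4 cells. The next step down lay within counting error for Cr2, Fcmr and Ms4a1, and had an interval above 1 for Fcer2a (3.73, 1.15 to 9.50).

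Across 25 clusters with at least 30 cells, each gene was set beside 6969 genes that reached 50 CPM in a cluster, by Pearson's r of log2(CPM + 1). The clusters come from 1 library, and the values describe them. For Cd79a, Ebf1 (r = 0.967) and Ms4a1 were among the 3 most alike. Cd79b was most like Cd79a (r = 0.944), Cecr2 and Ebf1, and Ms4a1 most like Cd79a (r = 0.956), Ebf1 and Pax5. Cr2 was most like Fcmr (r = 0.923), Pax5 and Ighd. Fcer2a had the same 3 genes, led by Fcmr (r = 0.947). Fcmr was most like Pax5 (r = 0.975), Ighd and Ebf1. Tnfrsf13c was most like AC125149.3 (r = 0.904), Cecr2 and Ms4a1, and Vpreb3 most like Pou2af1 (r = 0.942), Cd79a and Cd79b. Spib was most like Carmil1 (r = 0.954), Smim14 and Il12a, and its r with the other 8 genes ran from 0.569 (Vpreb3) to 0.738 (Tnfrsf13c).

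Other genes of the pathway were free to shape the clusters, so their values describe the classes only. Of 11142 genes with at least 10 UMI, 4.05% were at least 2-fold higher in transitional-like than in mature cells, and 2.87% lower. In transitional-like against mature cells none of 20 proximal signalling genes passed 2-fold in either direction (median log2 0.14). The largest were Vav2, a guanine nucleotide exchange factor (1.75-fold), Blnk, an adaptor below the receptor (1.57-fold), and Vav1 (1.52-fold). Of 20 co-receptor and inhibitory receptor genes 4 were higher and none lower, led by the inhibitory receptor Cd72 at 308 against 116 CPM (2.65-fold, 2.40 to 2.92), Cd24a (2.43-fold) and the phosphatase gene Ptpn6 (2.11-fold). Of 14 BAFF family and survival genes, Pim2 was higher (2.43-fold), and Bcl2a1b (21.5 against 91.3 CPM) and Bcl2a1d (4.31 against 26.5 CPM) were lower. Bcl2a1b and Bcl2a1d are near-identical copies, between which reads may be split.

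Of 25 B lineage transcription factors 2 were higher, Prdm1 (13.8 against 5.01 CPM) and Tcf3 (234 against 112 CPM), and 1 was lower, Zfp318 (149 against 352 CPM), which promotes the splicing that gives IgD. All 9 of the early B genes with at least 10 UMI were higher, led by Rag1 (52.5 CPM against 2 UMI in mature cells), Myb (10.8-fold) and Sox4 (7.60-fold). Several of these were markers that split the B-like cells, as were Cd24a above and Ly6d and Ccr6 in the next list. Rag1 stood at 866 CPM in the transitional-like subcluster of 40 cells and at 9.24 CPM in that of 597 cells. Of 19 other identity genes Ly6d was higher (3.64-fold), the chemokine receptor gene Ccr6 was lower (10.3 against 31.4 CPM), and Ms4a4c, a relative of Ms4a1, stood at 65.0 against 131 CPM.

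In plasma-like against mature cells, where 36.6% of all genes were lower, 4 of the 6 lists had most of their genes lower: 15 of 20 proximal signalling genes with 1 higher, 15 of 20 co-receptor genes with 2 higher, 19 of 25 transcription factors with 2 higher, and 16 of 19 other identity genes with 1 higher. The other 2 lists had shares nearer to that of all genes, with 7 of 15 BAFF family and survival genes and 2 of 7 early B genes lower. Bank1, a scaffold of receptor signalling, stood at 6.59 against 737 CPM, Blk at 5.39 against 156 CPM and Syk at 92.9 against 859 CPM. Cd22, an inhibitory co-receptor, had 2 UMI in plasma-like cells, Cd72 had 2 and Fcrl1 had 7. Pax5, which maintains B cell identity, stood at 4.79 against 538 CPM, Ebf1 at 43.1 against 1919 CPM and Zfp318 at 3.60 against 352 CPM. Of the BAFF family and survival genes 3 were higher. Tnfrsf17, the receptor for BAFF and APRIL on plasma cells, stood at 251 CPM against 0.501 CPM (501-fold, 194 to 1849), beside the 2.17-fold lower Tnfrsf13c. Birc3 (41.3 against 327 CPM) and Map3k14 (3.60 against 29.7 CPM) were among the lower genes. Of the early B genes none was higher: Sox4 had 1 UMI in plasma-like cells, Myb stood at 5.39 against 9.51 CPM and Kit had 0 UMI. Among the lower identity genes, Ciita, the activator of class II genes, had 2 UMI, Cxcr5 had 1 UMI and H2-Oa had 5 UMI.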

How the data were processed

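The files were deposited by the authors as 10x-style matrices of raw UMI counts; per the submitters' processing notes they used Cell Ranger 2.1.1, STAR, Seurat 2.3.4 and mm10, while the matrix header names software version 3.0.0. The 2 samples' files are identical and were read as 1. Barcodes needed 500 UMI, 200 genes and no more than 10% mitochondrial UMI, and Scrublet calls (3.39%) were removed. scanpy 1.11.5 normalized each cell to 10000 UMI and used 2000 variable genes without the 9 members, 30 components, 15 neighbours and Leiden resolution 1.0, which gave 27 clusters. Clusters were named from marker lists, and B-like clusters were split by transitional and mature lists. UMI summed per class were divided by their total (CPM); fold changes use 1 CPM pseudocount and 2-fold as a call, with no test. Intervals are exact Poisson, conditional Poisson (ratios), conditional odds ratio (quotients to Cd79a) or Clopper-Pearson (shares). Steps were tested on simulated data. Named genes are the 9 genes, the 3 most like each, and per list the 3 with the largest log2 fold and at least 10 UMI. One gene that this rule names is not reported here. Genes and lists were chosen with earlier results of these data known. Positions are from GENCODE M21. Processing alternatives are given in the closing section.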

Additional observations from a re-analysis of the deposited data

How the results depend on the processing

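All 9 genes were at least 2-fold higher in B-like cells under each of 15 alternatives, among them a gate on B marker genes that held 2985 cells, and 5 were at least 2-fold higher in transitional-like than in mature cells under each of 13. The 9 were chosen as B cell genes and the 5 include Vpreb3. The first count, and Vpreb3 in the second, are therefore descriptions. The number at least 2-fold lower in plasma-like cells lay between 7 and 9 under 13 alternatives. The number at least 2-fold lower in transitional-like cells, 0 as reported, became 2 with at most 5% mitochondrial UMI, with the 9 genes allowed among the variable genes and at Leiden resolution 2.0. It became 1 with 4000 variable genes, at resolution 0.5, with the reduced total and with the mean over cells. These genes were Fcer2a and Cr2, whose log2 folds kept their sign under all 13, between -2.59 and -0.76 for Fcer2a and between -2.11 and -0.65 for Cr2. The number at least 2-fold higher in plasmacytoid dendritic-like cells, 2 as reported, became 1 with a pseudocount of 10 CPM, and 3 or 2 otherwise. The log2 fold of Ms4a1 there, -1.41 as reported, reversed to 0.16 when doublet calls were kept; the cause was not tested. Of 486 gene values under the alternatives 288 stayed within the counting interval of the reported value, 197 moved outside it and 1 reversed. A reversal was counted only for a gene past 2-fold as reported. Of the others, Fcer2a and Fcmr in plasmacytoid dendritic-like cells kept their sign under 7 and 8 of 13 alternatives. Chosen after the data were seen were 4 alternatives: the cluster of B and hepatocyte genes left out or counted as B-like, a total without immunoglobulin genes, and B-like subclusters as classes. No paired analysis was possible because both samples hold the same files. Cr2 rests on few UMI outside the mature B-like cells, where it had 444 UMI. Fcer2a, Fcmr and Vpreb3 rest on few UMI in most classes outside the B-like cells. Exceptions are 106 UMI of Vpreb3 in plasma-like cells and 129 UMI of Fcmr in the cluster of B and hepatocyte genes.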

Other observations

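Other genes of the pathway, chosen by the same rule as above, moved in both directions in plasmacytoid dendritic-like cells against the other cells outside the B-like and plasma-like classes. Of all genes 7.83% were at least 2-fold higher there and 24% lower. Of 20 proximal signalling genes 8 were higher and 2 lower, of 19 other identity genes 7 and 5, of 25 transcription factors 8 and 7, and of 20 co-receptor genes 6 and 7. Of 16 BAFF family and survival genes 1 was higher and 7 lower, and of 10 early B genes 1 and 3. Blnk, an adaptor below the B cell receptor, stood at 424 CPM against 6.02 CPM (70.4-fold, 61.5 to 80.8), while Bank1 (3.35 against 47.9 CPM) and Rasgrp3 (2.39 against 110 CPM) were lower. Tnfrsf13b, a receptor for BAFF and APRIL, stood at 158 CPM against 9.67 CPM (16.4-fold, 14.2 to 18.9), beside 8.61 CPM of Tnfrsf13c. Dntt, a polymerase of receptor gene assembly, stood at 116 CPM against 2.14 CPM (54.0-fold, 42.6 to 68.9). Fcrla (186 against 7.84 CPM), Mzb1 (301 against 8.74 CPM), H2-Oa (88.0 against 7.18 CPM) and Ly6d (3204 against 30.3 CPM) were also higher. Of the transcription factors, Tcf4 (3528 against 247 CPM), which names the class, and Bcl11a (30.2-fold, 27.1 to 33.6) were higher, and Id2 (49.7 against 618 CPM) was lower. These genes were free to shape the clusters, so the values are descriptions.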
